A study of Mus musculus with 8 samples.

Results

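Omp, Stoml3, S100a5, Umodl1, Slc17a6 and Cidea are mRNAs that mark mature olfactory sensory neurons (OSNs) and do not belong to the odor transduction cascade. They were taken as the rows of the array table that carry a single gene symbol from this list, which gave 6 of the 23410 rows with a gene symbol, 1 row for each gene. The study asked whether deleting the homeodomain transcription factor Emx2 in OSNs alters mRNA abundance in olfactory mucosa, mainly that of odorant receptors. The Emx2 knockout group held 4 samples of 123Cre:Emx2(fl/fl) mice, which carry Cre and floxed copies of Emx2 on both chromosomes. The control group held 4 littermate samples, 2 of them 123Cre:Emx2(fl/+) with Cre and a single floxed allele and 2 of them Emx2(fl/fl) with both alleles floxed but no Cre. All mice were on a mixed 129 x C57BL/6J background and were taken on postnatal day 1, and total RNA of dissected mucosa from each sample was read on its own Affymetrix Mouse Gene 1.0 ST array.

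Several features bound what these groups can show. The 123Cre transgene drives recombination from the immature OSN stage onward, so the other cell types of the mucosa are not meant to lose Emx2. The 123Cre:Emx2(fl/+) controls can themselves lose an Emx2 allele. Per the study's methods, both sexes were used and litters that gave knockouts also gave controls, but the labels name neither sex, litter nor animal, so p-values measure only the spread between these 8 samples. Emx2 mRNA, measured as a check, was 9.80 to 10.01 in knockouts and 10.72 to 10.997 in controls. It fell by 0.94 on the log2 scale, averaging 9.90 ± 0.089 in knockouts and 10.84 ± 0.12 in controls (SD, n = 4 each, limma adjusted p = 0.0014). Array medians lay between 7.998 and 8.13. The array of knockout replicate 2 correlated less with the other arrays (mean r of 0.979, against 0.988 to 0.991 for the other 7), and values without it are given for the markers and for some related genes.

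An OSN born from a basal progenitor first extends an axon and settles on a single odorant receptor, then grows cilia into the nasal mucus and reaches maturity. Mature OSNs make the proteins that turn odorant binding into a current, and alongside these a set of abundant proteins that serve the cell in other ways. Omp, olfactory marker protein, is the cytosolic protein by which mature OSNs are classically recognized. Stoml3 encodes a stomatin-domain membrane protein of OSN cilia. S100a5 encodes an EF-hand calcium-binding protein whose abundance in mouse OSNs follows their odor-driven activity. Slc17a6 encodes VGLUT2, the transporter that loads glutamate into synaptic vesicles. Umodl1 encodes a uromodulin-like protein with a zona pellucida domain. Cidea encodes a protein of the CIDE family, best known from lipid droplets of brown fat.

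All 6 rows were brighter than the dimmest 30% of rows on the arrays. The genes lie on chromosomes 3 (Stoml3 and S100a5), 7 (Omp and Slc17a6), 17 (Umodl1) and 18 (Cidea), and their symbols matched the GRCm38.p6 gene table by gene number in 6 of 6 cases. Promoter sequences, from 250 bases before to 50 bases after an annotated start, were available from RefSeq for 4 of the 6 genes, with 5 entries in all because Slc17a6 has 2. Each was searched for a core of sites bound by Olf/Ebf factors, CCCNNGGG, and for a core bound by many homeodomain factors, TAATTA. Both read the same on either strand. They were chosen because Olf/Ebf factors act in OSNs and because the deleted gene encodes a homeodomain protein. S100a5 is shown because it had the lowest knockout value relative to control of the 6 genes, and Umodl1 and an entry of Slc17a6 because each holds a match, in capitals below. The positions are those of GRCm38.p6 on the plus strand, chr3:90608272-90608571 for S100a5, chr17:30954433-30954732 for Umodl1 and chr7:51624387-51624686 for Slc17a6.
S100a5: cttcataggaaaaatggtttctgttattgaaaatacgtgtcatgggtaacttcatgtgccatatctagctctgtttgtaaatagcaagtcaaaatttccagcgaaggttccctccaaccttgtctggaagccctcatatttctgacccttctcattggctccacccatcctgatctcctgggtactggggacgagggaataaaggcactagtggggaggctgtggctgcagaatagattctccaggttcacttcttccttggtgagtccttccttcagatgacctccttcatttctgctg
Umodl1: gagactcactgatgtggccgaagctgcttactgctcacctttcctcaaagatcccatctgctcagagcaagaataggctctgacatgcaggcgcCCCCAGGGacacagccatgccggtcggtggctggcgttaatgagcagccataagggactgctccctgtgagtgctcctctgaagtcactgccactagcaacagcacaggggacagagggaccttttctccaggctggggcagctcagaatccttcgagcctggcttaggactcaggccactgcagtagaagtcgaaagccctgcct
Slc17a6: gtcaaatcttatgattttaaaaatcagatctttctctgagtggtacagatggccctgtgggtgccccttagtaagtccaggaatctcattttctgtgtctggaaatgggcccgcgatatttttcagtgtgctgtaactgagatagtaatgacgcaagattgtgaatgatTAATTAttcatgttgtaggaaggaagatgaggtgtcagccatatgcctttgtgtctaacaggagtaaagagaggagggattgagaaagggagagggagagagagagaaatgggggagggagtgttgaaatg
The match in Umodl1, CCCCAGGG, begins at -156 relative to the annotated start, and 13.7% of the 32851 promoters of that length hold CCCNNGGG. The match in Slc17a6 begins at -81, and 5.29% of promoters hold TAATTA. The S100a5 window holds neither set of letters, and neither do those of Stoml3 and the other entry of Slc17a6. A match here describes the letters of the window only.

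All 6 markers had a lower mean in the Emx2 knockouts than in the controls, by 3.97% to 30.2% after back-transformation, and the size of the difference varied widely among them. S100a5 had the largest difference of the 6, with a mean 0.52 below that of the controls on the log2 scale and no overlap between the groups. Omp and Stoml3, whose levels varied least between samples, differed by less than 0.10. Slc17a6, Cidea and Umodl1 lay between. None of the 6 differences passed an adjusted p of 0.05 over all rows (limma, Benjamini-Hochberg), where 0.359% of the 23410 rows did so in either direction and 0.35% with a lower knockout mean. At an unadjusted p under 0.05 there was 1 of 6, S100a5, and the methods' t-test likewise gave 0 and 1. A knockout mean below the control mean was the case for 48.4% of all rows. The median difference of the 6 genes was -0.18, against 0.004 for all rows tested.

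Omp mRNA measured 12.88, 12.91, 12.80 and 12.94 in the knockout samples, against 12.92, 12.90, 13.07 and 12.86 in the control samples (log2 values in order of replicate number). The groups overlapped, with a knockout at the bottom of the range and a control at its top. The mean was 12.88 ± 0.061 in knockouts and 12.94 ± 0.091 in controls (SD, n = 4 each), a difference of -0.06 with a 95% confidence interval of -0.22 to 0.10 (limma adjusted p = 1.0). It was -0.01 without control replicate 3, the highest sample, and -0.07 without knockout replicate 2. On the scale of the arrays' linear signal, Omp with all samples was 4.05% less in knockouts. Because the samples are whole mucosa, fewer OSNs and less Omp mRNA per OSN cannot be told apart, and the same holds for every marker below. The spread of Omp within groups was small, with only 12.4% of rows showing a smaller SD.

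Stoml3 mRNA measured 13.82, 13.70, 13.78 and 13.93 in knockouts, against 13.93, 13.79, 13.92 and 13.93 in controls. The controls other than replicate 2 were nearly alike at the top of the range, and the highest knockout was level with them. The mean was 13.81 ± 0.094 in knockouts and 13.89 ± 0.066 in controls, a difference of -0.08 (95% interval -0.25 to 0.08, limma adjusted p = 0.998), or -0.05 without knockout replicate 2. The relatives of Stoml3 that the array measured were also not called. Stom, which encodes stomatin itself, differed by -0.20 (limma adjusted p = 0.826), Stoml1 by -0.10 and Stoml2, a mitochondrial member of the family, by -0.10. Stom differed by -0.26, Stoml1 by -0.18 and Stoml2 by -0.22 when knockout replicate 2 was left out. Genes of respiratory ciliated cells, the other cells of the nasal lining that carry cilia, had higher knockout means in 7 of 7 cases with a median of 0.27. None passed, and 2, Tmem212 and Ccdc153, had an unadjusted p under 0.05. The share of all rows with a higher knockout mean at that p is not given here. The mean level of these cilia genes ranged from 10.45 to 10.85 in knockouts and from 10.39 to 10.53 in controls. Its part in the Stoml3 value was not tested.

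S100a5 mRNA measured 12.27, 12.69, 12.17 and 12.17 in knockouts, against 12.94, 12.76, 12.74 and 12.93 in controls. Every knockout lay below every control, though knockout replicate 2 missed the lowest control by only 0.048. Of the 6 markers 1 showed such a separation, against 2.54% of all rows. The mean was 12.33 ± 0.25 in knockouts and 12.84 ± 0.11 in controls (SD, n = 4 each). The difference of -0.52 had an SE of 0.13 and a 95% interval of -0.80 to -0.23, an unadjusted p of 0.00262 and an adjusted p of 0.308 (limma). S100a5 was the only marker of the 6 with an unadjusted p under 0.05, where 3.06% of all rows reached that with a lower knockout mean, and 241 rows, or 1.03%, had a lower difference. In linear signal, S100a5 averaged 5194 ± 969 in knockouts and 7363 ± 539 in controls, which is 29.5% less.

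Whether the S100a5 difference passed over all rows depended on knockout replicate 2. Its S100a5 value was 0.49 above the mean of the other 3 knockouts, and without this sample S100a5 was 12.17 to 12.27 in knockouts, against 12.74 to 12.94 in controls. The difference was then -0.64 (95% interval -0.82 to -0.46), or 35.9% less, and passed over all rows (limma adjusted p = 0.00999). With all 8 samples kept and each array weighted by how well it followed the fit, which gave knockout replicate 2 a weight of 0.17, the difference was -0.61 (limma adjusted p = 0.00681). Both settings let more rows pass. Of the 23410 rows, 132 passed without knockout replicate 2 and 224 with array weights, against 84 with all samples unweighted. A lower knockout mean at an unadjusted limma p under 0.05 was found for 4.85%, 7.1% and 3.06% of rows in these fits.

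**Figure D1:**
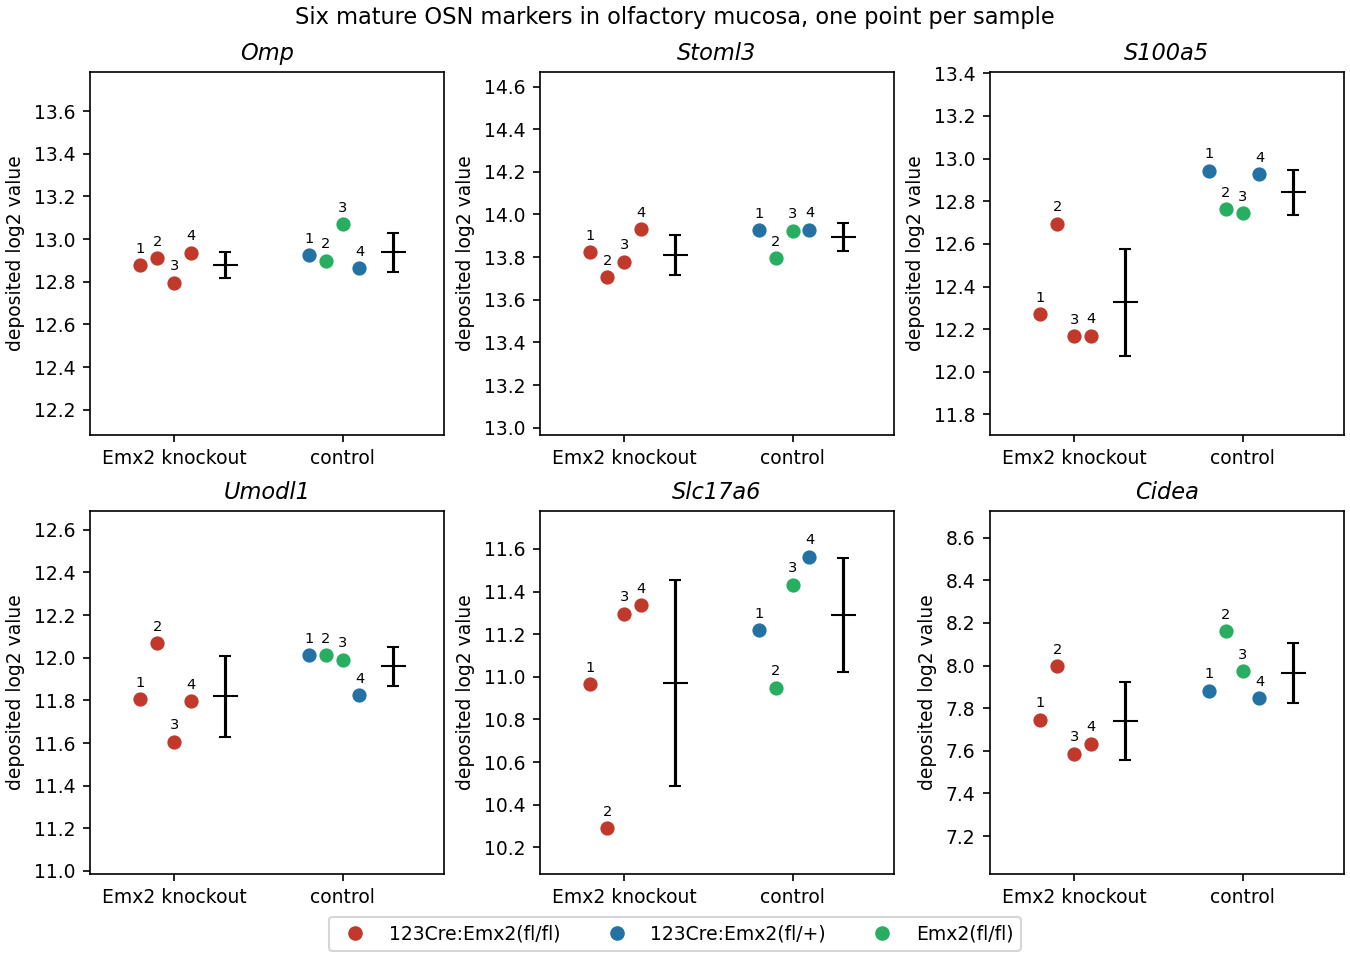
Deposited log2 value of each marker in each sample, with Emx2 knockouts (red) left of controls (123Cre:Emx2(fl/+) in blue, Emx2(fl/fl) in green). Digits are replicate numbers, bars are mean ± SD (n = 4 each) and the axes span the same range in every panel. Only S100a5 has all knockouts, at 12.17 to 12.69, below all controls, at 12.74 to 12.94.

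S100a5 belongs to a large family of small calcium-binding proteins, and its relatives differed in both directions. Of 13 other S100 genes measured, 4 had a lower and 9 a higher knockout mean, with a median of 0.09. None passed over all rows, and 1 had an unadjusted p under 0.05 with a lower knockout mean (3.06% of all rows). That balance rested on knockout replicate 2, without which 8 had a lower and 5 a higher knockout mean, with a median of -0.03. The exception in size was S100z, which averaged 9.19 ± 0.20 in knockouts and 9.75 ± 0.15 in controls, with every knockout below every control, a difference of -0.56 (limma unadjusted p = 0.00106, adjusted p = 0.177). It passed when arrays were weighted (adjusted p = 0.0286) but not without knockout replicate 2 (adjusted p = 0.127). At the other end, S100a9 and S100a8, which are abundant in neutrophils, differed by 0.35 and 0.27, and S100a6 by 0.22, without passing. These differences were 0.18, 0.21 and -0.03 without knockout replicate 2. Knockout replicate 2 lay above the other 3 knockouts for 11 of these 13 genes, as it did for S100a5. Over all rows this was so for 42.9%.

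Slc17a6 mRNA measured 10.96, 10.29, 11.30 and 11.34 in knockouts, against 11.22, 10.95, 11.43 and 11.56 in controls. Values of the groups were interleaved, and knockout replicate 2 and control replicate 2 were the lowest of their groups. The mean was 10.97 ± 0.48 in knockouts and 11.29 ± 0.27 in controls, a difference of -0.32 with a wide 95% interval of -0.85 to 0.21 (limma adjusted p = 0.974). Slc17a6 was the most variable marker within groups, with 93.9% of rows showing a smaller SD. Every sample titled A1 to A4 lay below every sample titled A5 to A8. Knockouts averaged 10.63 in A1 to A4 and 11.32 in A5 to A8, and controls 11.08 and 11.50. With these title runs as blocks, the 95% interval was -0.65 to 0.01 (limma unadjusted p = 0.0575, adjusted p = 0.599). Knockout replicate 2 lay 0.91 below the mean of the other knockouts, and without it the difference shrank to -0.09 (95% interval -0.45 to 0.26).

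VGLUT2 is also made by some projection neurons of the olfactory bulb and brain, which can be carried along in dissection. Of 9 genes of bulb and brain neurons, 6 had a lower knockout mean, with a median of -0.23. None passed, and 1, Slc17a7, had an unadjusted p under 0.05 with a lower knockout mean (3.06% of all rows). Their mean level ranged from 7.72 to 7.94 in knockouts and from 7.74 to 8.29 in controls, and was lowest in knockout replicate 2. That sample lay below the other knockouts for 4 of the 9 genes and above them for 1. Gad2 deviated most, by -0.87 from the mean of the other knockouts. The part of bulb and brain neurons in the Slc17a6 value was not tested. Slc17a7, the vesicular glutamate transporter typical of bulb output neurons, averaged 7.44 ± 0.17 in knockouts and 7.85 ± 0.26 in controls, a difference of -0.41 (limma unadjusted p = 0.0178, adjusted p = 0.703). Slc17a8, the remaining transporter of the group, differed by 0.05.

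Umodl1 mRNA measured 11.81, 12.07, 11.61 and 11.80 in knockouts, against 12.01, 12.01, 11.99 and 11.82 in controls. Knockout replicate 2 had the highest value of all 8 samples, and the other 3 knockouts lay below every control. The mean was 11.82 ± 0.19 in knockouts and 11.96 ± 0.091 in controls, a difference of -0.14 (95% interval -0.37 to 0.09, limma adjusted p = 0.973). Without knockout replicate 2 it was -0.22 (95% interval -0.41 to -0.04, limma unadjusted p = 0.0247, adjusted p = 0.424), and without knockout replicate 3, the lowest sample, it was -0.07 (limma unadjusted p = 0.496). Other zona pellucida domain genes, Umod, Oit3, Tecta, Tectb and Cuzd1, had a median difference of 0.08 and a lower knockout mean in 1 of 5 cases, and none passed.

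Cidea mRNA measured 7.75, 7.995, 7.59 and 7.63 in knockouts, against 7.88, 8.16, 7.97 and 7.85 in controls. As with Umodl1, the knockouts other than replicate 2 lay below every control. The mean was 7.74 ± 0.18 in knockouts and 7.97 ± 0.14 in controls, a difference of -0.23 (95% interval -0.48 to 0.02, limma unadjusted p = 0.0715, adjusted p = 0.847). With samples A1 to A4 and A5 to A8 of the titles as blocks, each holding 2 samples of either group, the interval was -0.44 to -0.02 (limma unadjusted p = 0.0383, adjusted p = 0.547). Without knockout replicate 2 the difference was -0.31 (95% interval -0.52 to -0.10, limma unadjusted p = 0.00874, adjusted p = 0.309). Cidea is known from fat, and fat cell genes were measured beside it. Ucp1, the uncoupling protein of brown fat, averaged 6.44 in knockouts and 6.43 in controls, and 1 of 7 fat cell genes, Cox8b at -0.21, had a lower knockout mean. Their mean level ranged from 7.25 to 7.51 in knockouts and from 7.30 to 7.33 in controls. The related genes Cideb and Cidec differed by 0.21 and 0.07, and neither passed. Leaving out knockout replicate 2 put Cideb at 0.09. It left 3 of the 7 fat cell genes with a lower and 4 with a higher knockout mean, with Ucp1 at -0.09 and Cox8b at -0.30.

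**Figure D2:**
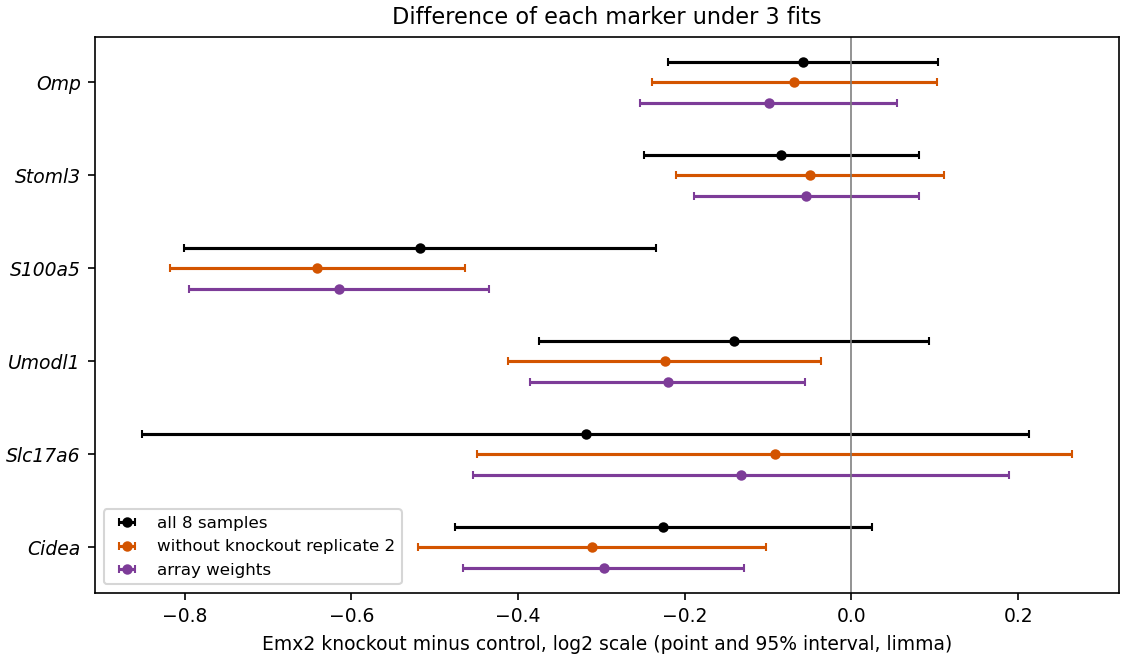
Knockout minus control difference of each marker on the log2 scale with its 95% interval from limma, from all 8 samples (black), without knockout replicate 2 (orange) and with array weights (purple). The interval of S100a5 lies below 0 in every fit, those of Umodl1 and Cidea do so in the orange and purple fits only, and the Slc17a6 estimate is -0.32 with all samples and -0.09 without knockout replicate 2.

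Knockout replicate 2 thus moved the markers in opposite directions. It lay above the other 3 knockouts for S100a5, Umodl1 and Cidea, below them for Slc17a6 and Stoml3, and among them for Omp. Without it, 3 of 6 markers had every knockout below every control, against 5.6% of all rows, and 3 had an unadjusted p under 0.05 with a lower knockout mean, against 4.85% of all rows. These 3 were S100a5, Umodl1 and Cidea in both cases.

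**Figure D3:**
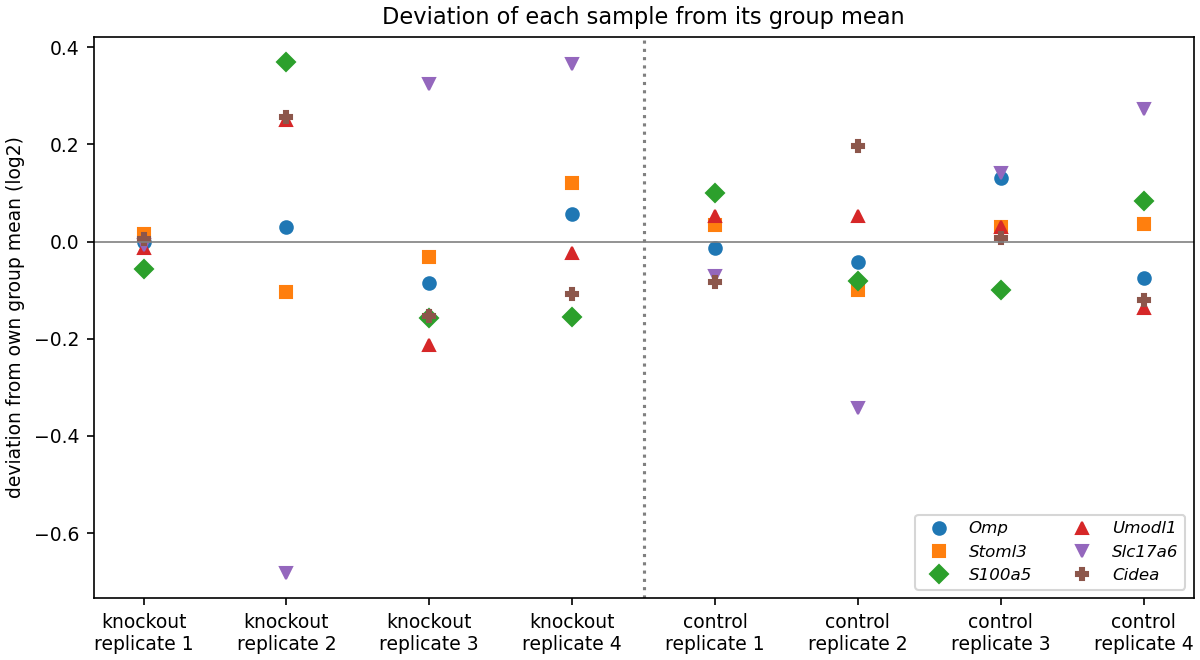
Deviation of each sample from the mean of its own group for each marker, on the log2 scale, with knockout replicates left of control replicates. In knockout replicate 2, S100a5, Umodl1 and Cidea lie above 0 while Slc17a6 lies far below it, and in control replicate 2 Cidea is the highest and Slc17a6 the lowest marker.

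The 2 control genotypes allowed each marker to be set against controls with Cre and against controls without it, in a limma fit of 3 genotypes. S100a5 averaged 12.33 in 123Cre:Emx2(fl/fl) samples, 12.93 in 123Cre:Emx2(fl/+) samples and 12.75 in Emx2(fl/fl) samples. The control samples lay at 12.93 to 12.94 with Cre and at 12.74 to 12.76 without, with 2 samples each. Knockouts differed by -0.61 from 123Cre:Emx2(fl/+) (95% interval -0.96 to -0.25, limma adjusted p = 0.725) and by -0.43 from Emx2(fl/fl) (95% interval -0.78 to -0.07, limma adjusted p = 0.83). The difference between 123Cre:Emx2(fl/+) and Emx2(fl/fl) was 0.18 (95% interval -0.23 to 0.59, limma adjusted p = 0.997). Without knockout replicate 2, S100a5 passed in both comparisons with knockouts, at -0.73 (limma adjusted p = 0.0133) and -0.55 (limma adjusted p = 0.0421). The share of all rows that passed in this smaller fit is not given here, so these calls have no background beside them.

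Unadjusted p-values under 0.05 were found for S100a5 against 123Cre:Emx2(fl/+) (1 of 6 markers, 3.54% of all rows), for S100a5 and Cidea against Emx2(fl/fl) (2 of 6, 5.47% of all rows), and for 0 of 6 between the control genotypes (2.04% of all rows). Cidea averaged 7.74 in 123Cre:Emx2(fl/fl), 7.86 in 123Cre:Emx2(fl/+) and 8.07 in Emx2(fl/fl) samples, and knockouts differed from Emx2(fl/fl) by -0.33 (limma unadjusted p = 0.0362, adjusted p = 0.865). Slc17a6 averaged 10.97 in 123Cre:Emx2(fl/fl), 11.39 in 123Cre:Emx2(fl/+) and 11.19 in Emx2(fl/fl) samples. For Slc17a6, knockouts differed from Emx2(fl/fl) by -0.22, but by 0.008 without knockout replicate 2. Omp, Stoml3 and Umodl1 differed by -0.09, 0.07 and -0.08 between controls with Cre and controls without it, and these intervals held 0. No marker passed in any of the 3 contrasts with all samples. Of all rows, 0.179% passed between knockouts and 123Cre:Emx2(fl/+), 0.137% between knockouts and Emx2(fl/fl), and 0% between the control genotypes.

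Over the 8 samples, 11 of the 15 pairs of markers had a positive and 4 a negative Pearson r. After adjustment over the pairs, 0 of the 15 pairs passed, and 3 had an unadjusted p under 0.05. Without knockout replicate 2, 13 pairs were positive and 2 negative, 0 passed and 1, Umodl1 and Cidea, had an unadjusted p under 0.05. These counts include the difference between the groups. Within groups, with group means subtracted, 7 pairs were positive and 8 negative, or 9 and 6 without knockout replicate 2. Umodl1 and Cidea gave a Pearson r of 0.87 (exact permutation p = 0.00608, adjusted p = 0.0703) and a Spearman rho of 0.88 (exact permutation p = 0.00724, adjusted p = 0.109). Their r was 0.82 without the 2 samples farthest from the median of Umodl1 and 0.83 within groups. Stoml3 and Slc17a6 gave an r of 0.83 (exact permutation p = 0.00938, adjusted p = 0.0703) and a rho of 0.71 (exact permutation p = 0.0576, adjusted p = 0.347), with an r of 0.88 without the 2 farthest samples and 0.79 within groups. This r was 0.66 without knockout replicate 2 (exact permutation p = 0.141). Slc17a6 and Cidea gave an r of -0.39 (exact permutation p = 0.35, adjusted p = 0.583) and a rho of -0.45 (exact permutation p = 0.267, adjusted p = 0.649). Their r was 0.27 without the 2 farthest samples. Within groups it was -0.93, and -0.83 within groups when knockout replicate 2 was left out. The within-group values were not tested. Subtracting group means leaves any difference between samples A1 to A4 and A5 to A8 in place. In both groups, Slc17a6 averaged lower and Cidea higher in A1 to A4 than in A5 to A8. The part of that difference in these r values was not tested.

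Among 15378 rows with a single symbol and not among the dimmest 30%, the genes whose levels over the 8 samples were most like each marker differed from marker to marker. They were Fam102b, Ikbkg and Pitpna for S100a5, with r of 0.98, 0.96 and 0.96. For Slc17a6 they were Agtpbp1, Ppp1r7 and Rab11a, with r of 0.995 to 0.996, and for Cidea they were Pgbd5, Extl1 and Gng3, each with r of 0.99. The closest for Umodl1 was Bod1, followed by 1500002C15Rik and Ppp2r5c, with r of 0.97 to 0.98. Stoml3 was followed most closely by Cep76, Purb and Asb7, with r of 0.96 to 0.98. Omp had the least similar neighbors, Slc25a17, Rab29 and Carns1, with r of 0.90 to 0.93. These values rank likeness over 8 arrays, and no test was attached to them.

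Set beside the rest of the OSN program, S100a5 had a lower difference than any gene of the transduction cascade. Of 12 cascade genes, 9 had a lower knockout mean, with a median of -0.10 (7 and -0.08 without knockout replicate 2). None passed, and at an unadjusted p under 0.05 there were 2 with a lower knockout mean (3.06% of all rows) and 1 with a higher. Ano2, the calcium-activated chloride channel of the cilia, differed by -0.35 (limma adjusted p = 0.116) and Cngb1, a subunit of the cyclic nucleotide-gated channel, by -0.25. The partner subunit Cnga4 differed by 0.27, Cnga2 by -0.14, the adenylyl cyclase gene Adcy3 by -0.11 and Gnal, which encodes the G protein alpha subunit Golf, by 0.002, or by 0.11 without knockout replicate 2. Of 4 other mature OSN genes, Rtp2, which helps odorant receptors reach the surface, differed by -0.40 (limma adjusted p = 0.128), and by -0.45 without knockout replicate 2 (limma adjusted p = 0.0362). Kirrel2, an adhesion protein of OSN axons, differed by -0.28, Pcp4l1 by -0.05 and Rtp1 by -0.04, for a median of -0.16, or -0.24 without that sample. Among 12 immature OSN genes 11 had a lower knockout mean, with a median of -0.15, led by Nhlh2 at -0.35, Trib3 at -0.25, Crmp1 at -0.24 and Ablim1 at -0.23. None passed, and 5 had an unadjusted p under 0.05, all with a lower knockout mean, against 3.06% of all rows. Gap43, a growth protein of OSN axons, differed by -0.23 (limma adjusted p = 0.564). Every knockout lay below every control for 4 of 12 cascade genes and 3 of 12 immature OSN genes. The same held for 1 of 4 other mature OSN genes, Rtp2, and for 2.54% of all rows. Ano2 and Rtp2 had a lower unadjusted p than S100a5 (limma, 0.000549 and 0.000661 against 0.00262). The difference between S100a5 and the genes of these lists was not tested.

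**Figure D4:**
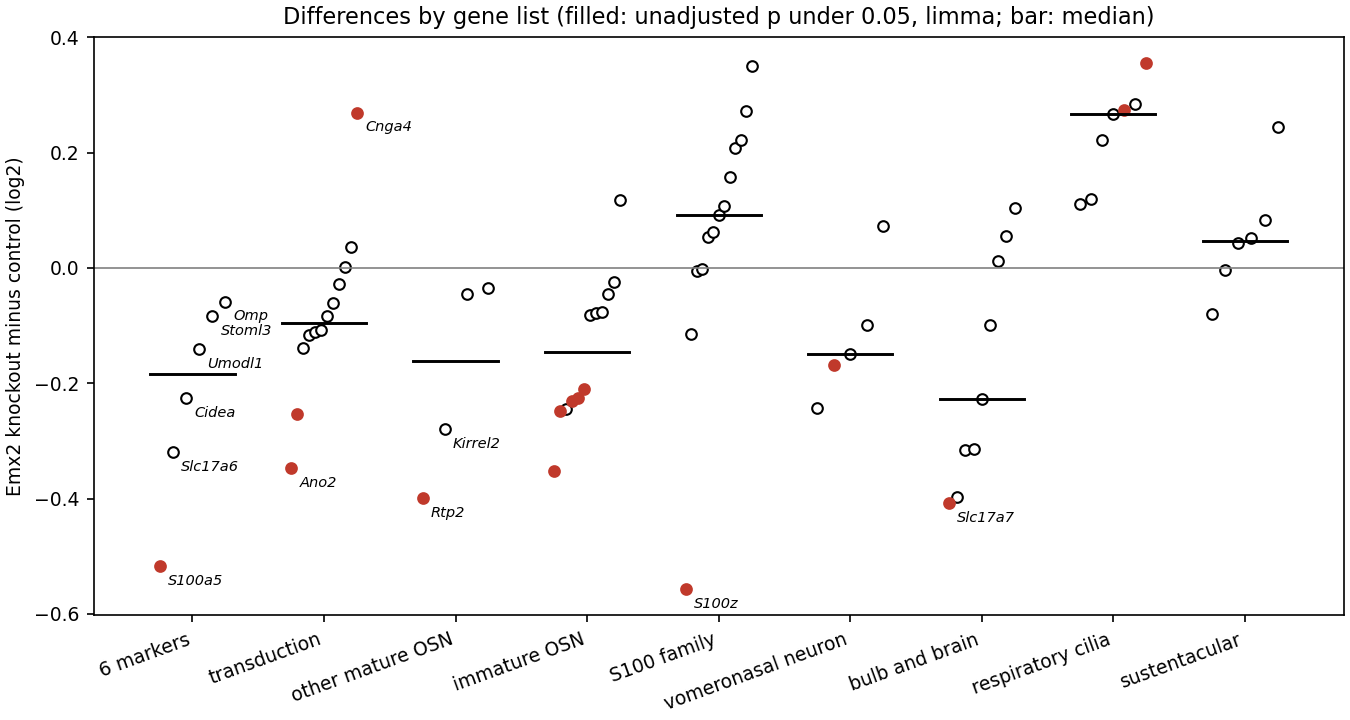
Knockout minus control difference (log2) of every measured gene in each list, with the median as a bar and genes at an unadjusted limma p under 0.05 filled. S100a5 at -0.52 and S100z at -0.56 are the lowest points shown, and the median of the 6 markers is -0.18 against -0.10 for the transduction list.

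The study's methods scale mRNA differences to those of mature OSN mRNAs, and whether the deposited values already include this step is not given in the sources used. When each array was centred on the mean of the 16 transduction and other mature OSN genes, Omp differed by 0.05 and Stoml3 by 0.02, so the direction of both turned. S100a5 kept a difference of -0.41 (95% interval -0.70 to -0.12, limma unadjusted p = 0.0108, adjusted p = 0.30). Umodl1 was then at -0.03, Cidea at -0.12 and Slc17a6 at -0.21, with intervals that held 0. This centring moved the median of all rows by 0.11.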

How the data were processed

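Olfactory mucosa from 8 mouse samples was profiled on Affymetrix Mouse Gene 1.0 ST arrays. The authors deposited log2 values, 1 for each transcript cluster and sample, and these were used without further scaling. Whether they already include the study's normalization to mature OSN mRNAs is not known here. Their processing notes mention Affymetrix Expression Console. Its version, background correction and normalization, and the genome build of the array annotation, were not given in the sources used here, so positions are those of the RefSeq promoter table. The number of arrays limits the precision. Of 35557 rows, the platform annotation gives 1 gene symbol to 21789, several to 1621 and none to 12147. The 23410 rows with a symbol were tested, and no row with several symbols held a marker. No 2 arrays were identical (root mean square difference of at least 0.202).

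Groups came from the phenotype labels. Knockouts were compared with controls in limma 3.58.1 under R 4.3.3 by a two-sided moderated test without covariates (lmFit, eBayes), with Benjamini-Hochberg adjustment across every tested row and a threshold of 0.05. This stood in for the t-test of the methods, which was run as an alternative. A second fit separated the control genotypes. Correlations used exact permutation p-values. The fits were tested on simulated data. Named genes were the 6 markers, Emx2 and Gap43 as checks, up to 4 genes with the largest difference in each related list, defining genes of those lists, relatives of the markers, and the 3 genes most like each marker. A list used the row with the highest mean for each gene. The markers, lists and tests were chosen with earlier results of these data known. Other settings changed the test, the scaling (quantile, or centring on the median or on other mature OSN genes), the rows tested (without the dimmest 30%, or every row), the variance model, the weight of each array, the sample runs of the titles (A1 to A4 and A5 to A8, as blocks or apart), the controls, the samples (each left out once) and the scale (linear).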

Additional observations from a re-analysis of the deposited data

Results flagged for a closer look

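In 2 of 12 groups of 4 samples, a single sample lay far from the other 3 relative to the range of its group. Chance flags about 1 in 20 groups. Stoml3 in control replicate 2, an Emx2(fl/fl) sample, was the lowest of the controls at 13.79, with the nearest control at 13.92. Umodl1 in control replicate 4, a 123Cre:Emx2(fl/+) sample, was the lowest of the controls at 11.82, with the nearest control at 11.99. No such gap was found for S100a5, where knockout replicate 2 at 12.69 lay 0.42 above the next knockout.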

How the results depend on the processing

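S100a5 kept its direction in all 21 alternatives, and it passed over all rows with array weights and without knockout replicate 2 only. Omp and Stoml3 turned to 0.048 and 0.022 when arrays were centred on other mature OSN genes. That centring moved the median of all rows by 0.11. Umodl1, Slc17a6 and Cidea kept their direction in all 21 alternatives. In the separate fit of 3 genotypes without knockout replicate 2, Slc17a6 turned to 0.008 against Emx2(fl/fl) controls. The number of markers passing was 0, but 1 with array weights and 0 to 1 when single samples were left out. Against each control genotype it was likewise 0 to 1 when single samples were left out, and 1 with array weights against 123Cre:Emx2(fl/+). Among the other gene lists, 3 genes passed with array weights (Ano2, Rtp2 and S100z) and 0 to 1 with single samples left out. The median difference of the markers was -0.077 with that centring, -0.12 in samples A1 to A4 alone, -0.12 against 123Cre:Emx2(fl/+) controls alone and between -0.21 and -0.12 with single samples left out. With samples A1 to A4 and A5 to A8 as blocks, Cidea had an unadjusted limma p of 0.0383 and Slc17a6 of 0.0575, and neither passed. S100a5 differed by -0.37 in samples A1 to A4 and -0.67 in A5 to A8. Over all rows 84 passed, against 28 with the methods' t-test, 224 with array weights, 110 with those blocks and 46 to 132 with single samples left out. No paired analysis was possible because the labels give no replicate number, litter or animal shared between the groups. The number of arrays, 4 in each group, limits how small a difference can be called.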

Other observations

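Markers of the other cells of the dissected mucosa were measured beside the OSN genes, and no gene of these lists passed over all rows. Sustentacular cell genes, among them Cyp2g1 and Cbr2, had a median difference of 0.05, with mean levels of 12.33 to 12.53 in knockouts and 12.26 to 12.42 in controls. Without knockout replicate 2 that median was 0.004. The sustentacular gene Ermn differed by -0.08 with all samples and by 0.33 without that sample. Genes of basal cells and OSN progenitors had a median of 0.07, with Krt14 at 0.43 and Krt5 at 0.43. Knockout replicate 2 lay above the other knockouts for 5 of 6 of them, and without it Krt14 was at 0.14 and Krt5 at 0.077. Skeletal muscle genes had a higher knockout mean in 7 of 7 cases, or 6 of 7 without knockout replicate 2, with a median of 0.10. Of them 2, Ckm and Myh8, had an unadjusted limma p under 0.05. The share of all rows with a higher knockout mean at that p is not given here. Mean levels of the muscle genes were 7.66 to 7.83 in knockouts and 7.53 to 7.73 in controls. Macrophage and leukocyte genes had a median of 0.01, and 4 ensheathing and Schwann cell genes, all with a lower knockout mean, had a median of -0.10, with Fabp7 at -0.40. Without knockout replicate 2 that median was -0.18, with Npy at -0.28, Sox10 at -0.21 and Fabp7 at -0.14. Of 5 vomeronasal neuron genes 4 had a lower knockout mean, with a median of -0.15 and Gnao1 at -0.17.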
